A study of Mus musculus with 12 samples.

Results

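Ovaries of 7-day-old mice (P7) that lacked Lhx8 were compared with ovaries of wild-type mice of the same age. The comparison covers 6 of the 12 samples of the series, namely 3 Lhx8 knockout and 3 wild-type samples at P7, each hybridised to 1 Illumina BeadChip array, and the other 6 samples are newborn ovaries of both genotypes. Each sample is called an ovary below, though its title does not say how many ovaries or animals it holds. The mutant line was kept on a mixed background of 129, C57BL/6 and SF1, which both genotypes share, and the sources used here do not describe the deleted allele. The sample labels name the tissue as oocytes, whereas the protocols describe RNA of ovaries, and markers of stroma, smooth muscle and endothelium were above background, so the samples are called ovaries here. The series asks what loss of Lhx8 does to oocytes, with autophagy and DNA damage in view. The array held 45281 probes for 19057 genes with a named probe, and 11968 of these genes were bright enough to test.

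LHX8 is a transcription factor of oocytes with LIM domains and a homeodomain. In the mouse ovary it is made in oocytes around the time that primordial follicles form, and ovaries without it are known to lose their oocytes in early postnatal life. In the first week after birth a first wave of follicles begins to grow: the oocyte makes its egg coat, its stores of maternal RNA and protein and the growth factors GDF9 and BMP15, and the flat pregranulosa cells around it become dividing granulosa cells that talk to the oocyte and to the theca cells outside the follicle.

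The deposited values are z scores, with a mean of 0 and an SD of 1 on each array. Every level below is a z score after quantile normalization over the 6 arrays, and every difference is knockout minus wild type in z units, with the SE of the fit (n = 3 ovary samples per genotype). It is not a fold change, because the sources used here do not say whether a log was taken first. A gene is said to rise or fall where its limma p, after Benjamini-Hochberg adjustment across the 11968 genes, was below 0.05, and all adjusted p-values are of that kind. Where the lower genotype was not above background on any array, "at least" gives the difference from the background level. Arrays of 1 genotype correlated with r from 0.9896 to 0.9938 and arrays of different genotypes with r from 0.953 to 0.960, and 80.6% of the variance lay along a first component that separated the genotypes. The share of probes above background was 47.52% ± 1.43 in knockout and 49.43% ± 0.99 in wild-type ovaries (SD, n = 3 each; exact two-sided permutation p = 0.2, where 0.1 is the smallest possible). The wild-type array of replicate 2 had a more compressed range of deposited scores than the others, with a maximum of 3.45 against 4.31 to 5.25, and it is included below. Arrays carry no read depth, and their number limits the precision.

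Lhx8 itself scored −0.35, −0.21 and −0.11 in the knockout ovaries, against 1.14, 1.07 and 1.36 in the wild-type ovaries. The groups did not overlap, and Lhx8 was lower in the knockout (−1.41 ± 0.10, adjusted p = 1.09e-06). In rank terms its probe lay at the 61.5th percentile of the array in knockout and at the 85.8th percentile in wild-type ovaries, and each knockout array still read it above background. Whether the probe falls inside the deleted stretch is unknown here, so its level is no full check of the genotype labels.

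The comparison of the genotypes touched a large share of the genes. In all 5197 genes were called, or 43.4% of those tested, and 6066 had an unadjusted limma p below 0.05. Of the called genes 2867 were higher in the knockout (24% of all tested) and 2330 were lower (19.5%). The split by direction depended on the scaling: 55.2% of calls were higher after quantile normalization, 44.8% on the deposited scores and 46.6% after median scaling. Large changes were mostly losses. A fall by over 1 unit was seen in 237 genes (1.98%) and a rise of that size in 69 (0.577%); 56 genes fell by over 2 units and 19 by over 3, against 3 that rose by over 2. In 84 of the 237 the knockout probe was not above background on any array. In 6417 genes (53.6%) the ranges of knockout and wild-type arrays were separate. Because so many genes were called, a call alone says little about a gene, and counts in the gene groups below are to be read against these shares and against the median difference of all genes, 0.04. A gene could pass the brightness filter through its 3 wild-type arrays alone, and such a gene then had to be lower in the knockout. One that passed through its 3 knockout arrays alone had to be higher. Of the called genes 313 were lower with no knockout array above background, and 144 were higher with no wild-type array above it. Counts of falls and of rises are therefore descriptions. In RNA of whole ovaries, fewer cells of a type and less RNA per cell cannot be told apart, nor can more cells and more RNA per cell. Scores are relative to the whole array, so a rise of a gene and a loss of other RNA cannot be told apart either.

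**Figure D1:**
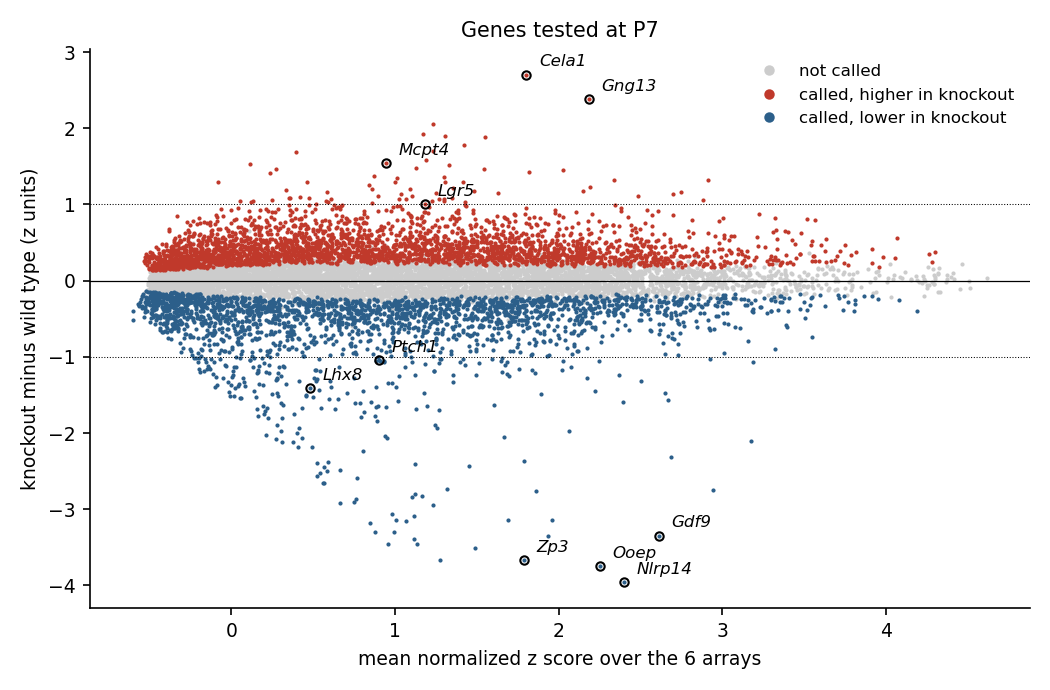
Each point is 1 of the 11968 genes tested, with the mean normalized z score over the 6 arrays on the x axis and the difference, knockout minus wild type in z units, on the y axis. Red points are called higher and blue points lower in the knockout, grey points are not called, dotted lines mark 1 unit and circles mark the genes named on the plot; losses reach −3.96 (Nlrp14) and gains 2.70 (Cela1).

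The transcription factors that run the oocyte program were lower together with Lhx8. Of 15 listed regulators 13 were tested, 12 fell and 1 rose, with a median of −0.96. Figla, the basic helix-loop-helix factor that switches on the zona pellucida genes, scored 0.00, 0.29 and 0.06 in the knockout ovaries, against 1.77, 1.89 and 1.66 in the wild-type ovaries. The knockout values lay far below every wild-type value (−1.66 ± 0.10, adjusted p = 2.7e-07). Sohlh1, another helix-loop-helix factor, needed for primordial follicles to form, had 2.13, 2.21 and 2.17 in the knockout ovaries, against 3.10, 3.18 and 3.10 in the wild-type ovaries; it fell (−0.96 ± 0.07, adjusted p = 6.05e-07) yet stayed above background on all 3 knockout arrays. Nobox, the oocyte homeobox factor, scored −0.43, −0.50 and −0.48 in the knockout ovaries, against 0.04, 0.17 and 0.31 in the wild-type ovaries (−0.64 ± 0.08, adjusted p = 4.6e-05). Foxo3, which holds primordial follicles dormant, fell by a smaller amount (−0.45 ± 0.10, adjusted p = 0.00296). Taf4b, a subunit of the general transcription machinery of germ cells, was lower and not above background in the knockout (−0.29 ± 0.05, at least −0.08, adjusted p = 0.000709). The small fall of Sohlh2, the partner of Sohlh1 (−0.16 ± 0.06, adjusted p = 0.0346), was lost when no dim probes were left out (adjusted p = 0.0572), with a replicate block (0.0604), without a trend in the variance (0.0754) or in a fit of all 12 arrays (0.287), and without knockout replicate 1 (0.0662) or 3 (0.0914) or wild-type replicate 1 (0.0973) or 3 (0.0886).

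The regulator that went the other way was Taf7l, an X-linked relative of the general transcription factor subunit TAF7 that is known from male germ cells. It scored 1.03, 0.81 and 0.99 in the knockout ovaries, against −0.49, −0.46 and −0.44 in the wild-type ovaries. Taf7l rose (1.41 ± 0.09, adjusted p = 2.3e-07). It was also ranked among the 20 largest rises, for which separate ranges of the genotypes were a condition. Gbx2, a homeobox gene known from the embryonic brain and from stem cells, was among the 20 largest falls, with −0.65, −0.68 and −0.65 in the knockout ovaries, against 2.59, 2.65 and 2.68 in the wild-type ovaries (−3.30 ± 0.08, at least −3.09, adjusted p = 1.95e-10). It was not above background on any knockout array. The oocyte homeobox genes of the OBOX family fell as well, with Obox5 at −2.18 ± 0.16, at least −1.94 and Obox1 at −1.41 ± 0.17, at least −1.18. All 3 tested members of the 6 with a named probe fell, but none was above background on any knockout array. They passed the brightness filter through their wild-type arrays alone, which fixed their direction, so this count is no result about the family. The size of the Obox5 fall was −1.44 when its probes were averaged.

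The egg coat and the proteins of the egg surface were among the largest losses. Zp3, the zona pellucida protein that sperm bind, scored −0.15, 0.11 and −0.10 in the knockout ovaries, against 3.65, 3.51 and 3.71 in the wild-type ovaries. Its probe lay at the 66.4th percentile in the knockout and at the 99.5th in wild-type ovaries (−3.67 ± 0.09, adjusted p = 1.95e-10). Zp1, which crosslinks the zona filaments, was not above background in the knockout (−3.14 ± 0.09, at least −3.03, adjusted p = 4.28e-10). The oocyte-secreted proteins Oosp1 (−3.46 ± 0.15, at least −3.13), Oosp2 (−2.52 ± 0.13, at least −2.25) and Oosp3 (−1.14 ± 0.12, at least −1.04) fell, with no knockout array above background for any of the 3. Of 10 listed genes of the egg coat and surface 7 were tested, 6 fell and 1 rose, with a median of −2.52, or −2.25 with genes at background set to their bound. In 4 of the 7 no knockout array was above background, so the brightness filter fixed their direction. The riser, the widely made tetraspanin gene Cd81, differed by 0.34 ± 0.07 (0.80 on the deposited scores, 0.82 after median scaling and 0.63 in a fit of all 12 arrays).

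The subcortical maternal complex and the cytoplasmic lattices, protein stores under the membrane and in the cytoplasm of the egg, were lower at nearly every tested gene. Of 12 listed genes 9 were tested and 8 fell, none rose, and the median was −2.10. Ooep, a core member, scored 0.13, 0.55 and 0.45 in the knockout ovaries, against 4.13, 4.04 and 4.21 in the wild-type ovaries (−3.75 ± 0.10, adjusted p = 4.28e-10). Its partner Khdc3 scored −0.40, −0.31 and −0.12 in the knockout ovaries, against 2.50, 2.60 and 2.48 in the wild-type ovaries (−2.80 ± 0.09, adjusted p = 1.95e-09). For both genes every knockout ovary lay far below every wild-type ovary. Ooep was ranked among the largest falls, for which separate ranges were a condition. Padi6, without which lattices do not form, had 1.27, 1.82 and 1.61 in the knockout ovaries, against 4.45, 4.09 and 4.42 in the wild-type ovaries (−2.75 ± 0.13, adjusted p = 2.64e-08). Nlrp5, also of the complex, had 1.91, 2.18 and 2.29 in the knockout ovaries, against 4.14, 4.31 and 4.25 in the wild-type ovaries (−2.10 ± 0.09, adjusted p = 1.53e-08). In a fit of all 12 arrays the difference of Padi6 was −4.21 and that of Nlrp5 −3.30. Both genes therefore fell by over 2 units while their knockout level remained above 1.

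Upstream sequences of several genes that fell, and of 1 that rose, are printed here as examples. FIGLA and SOHLH1 belong to the helix-loop-helix family, which binds 6-base E-boxes, and LHX8 to the homeodomain family, which binds AT-rich sites. The E-box CAGCTG, which reads alike on both strands, and the E-box CAGGTG, whose reverse is CACCTG, were searched on both strands in the 250 bases before the annotated start. The promoters below come from RefSeq (GRCm38.p6), run 5′ to 3′ and end just before the start, with these E-boxes in capitals. Another E-box, CACGTG, was counted on its own and is left in lower case. They show the egg coat gene Zp3, the lattice gene Padi6 and the maternal complex gene Khdc3, then a pair of F-box genes of 1 cluster, Fbxw15 and Fbxw18, and last Cela1, the gene with the largest rise. These are picked examples that all hold a capitalised E-box, against 52.2% of the promoters of genes that fell by over 1 unit.
Zp3, chr5:135979855-135980104, plus strand: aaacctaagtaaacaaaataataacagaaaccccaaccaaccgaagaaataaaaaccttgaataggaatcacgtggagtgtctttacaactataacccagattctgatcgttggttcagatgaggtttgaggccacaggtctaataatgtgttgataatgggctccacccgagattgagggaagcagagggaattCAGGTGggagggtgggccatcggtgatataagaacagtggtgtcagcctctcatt
Padi6, chr4:140742644-140742893, minus strand: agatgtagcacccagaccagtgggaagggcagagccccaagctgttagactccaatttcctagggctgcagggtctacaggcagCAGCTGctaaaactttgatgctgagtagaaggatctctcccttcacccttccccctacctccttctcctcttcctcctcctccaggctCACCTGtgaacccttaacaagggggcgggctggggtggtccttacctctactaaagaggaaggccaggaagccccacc
Khdc3, chr9:73102148-73102397, plus strand: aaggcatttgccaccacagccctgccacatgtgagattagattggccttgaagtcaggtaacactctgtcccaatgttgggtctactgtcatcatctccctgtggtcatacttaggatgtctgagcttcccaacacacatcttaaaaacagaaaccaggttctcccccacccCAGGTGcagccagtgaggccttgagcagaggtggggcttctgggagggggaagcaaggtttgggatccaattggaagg
Fbxw15, chr9:109568263-109568512, minus strand: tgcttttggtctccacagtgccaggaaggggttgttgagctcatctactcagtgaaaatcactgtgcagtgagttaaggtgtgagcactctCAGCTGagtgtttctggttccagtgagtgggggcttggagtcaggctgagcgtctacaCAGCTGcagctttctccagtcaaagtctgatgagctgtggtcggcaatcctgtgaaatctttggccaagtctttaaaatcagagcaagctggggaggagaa
Fbxw18, chr9:109702701-109702950, minus strand: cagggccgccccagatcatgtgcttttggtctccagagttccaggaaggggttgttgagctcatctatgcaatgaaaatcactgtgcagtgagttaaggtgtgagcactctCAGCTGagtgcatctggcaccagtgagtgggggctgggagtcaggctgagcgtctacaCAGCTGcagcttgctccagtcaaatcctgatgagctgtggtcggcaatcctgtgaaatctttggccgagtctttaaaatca
Cela1, chr15:100687921-100688170, minus strand: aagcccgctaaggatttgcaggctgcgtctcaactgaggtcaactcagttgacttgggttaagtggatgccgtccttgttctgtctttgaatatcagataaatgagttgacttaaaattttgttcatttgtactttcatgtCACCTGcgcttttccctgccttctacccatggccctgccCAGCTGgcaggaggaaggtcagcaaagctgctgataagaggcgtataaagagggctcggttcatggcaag

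The capitalised E-box of Zp3 begins 55 bases before the start, and this promoter also holds 1 CACGTG; that of Khdc3 begins 78 bases before the start, and Padi6 has one at 78 and another at 166 bases before. Fbxw15 and Fbxw18 are copies: over 230 aligned bases 93.9% were identical, and both of their E-boxes lie in that stretch, at 101 and 159 bases before the start of Fbxw15 and at 81 and 139 before that of Fbxw18. Cela1 has a pair too, at 70 and 109 bases before its start. A match of letters is a description and not a measured binding site.

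The capitalised E-boxes were more frequent upstream of genes that fell than upstream of all genes tested, whereas CACGTG was not: it was in 6.5% of the promoters of genes that fell, 5.9% of those of genes that rose and 8.0% of those of genes tested. Of the genes that fell by over 1 unit 184 had a promoter entry, and 52.2% of these held at least 1 capitalised E-box, against 41.2% of the 51 entries of genes that rose by over 1 unit, 25.8% of the 9629 entries of all genes tested and 27.5% of all 27025 entries. CAGCTG alone was in 28.8% of the promoters of genes that fell, 19.6% of those of genes that rose and 12.1% of those of genes tested. With 1 gene kept for each family stem of the symbols, an alternative chosen after seeing the data, the shares were 49.7% for genes that fell, 38.8% for genes that rose and 25.6% for genes tested. In the stretch from 100 to 51 bases before the start, 22.8% of the genes that fell, 7.8% of those that rose and 6.3% of the genes tested held a capitalised E-box. In the last 50 bases before the start the order differed, with 10.9% of the genes that fell, 17.6% of those that rose and 4.7% of the genes tested. Homeodomain motifs, spelled TAATTA or as the variants TAATTG and also TGATTG on either strand, were in 27.2% of the promoters of genes that fell, 21.6% of those of genes that rose and 19.2% of those of genes tested. TAATTA alone was in 6.0% of genes that fell, 2.0% of those that rose and 2.7% of genes tested. TAATTA or TAATTG was in 12.5%, 7.8% and 6.9% in the same order. The median GC content was 57.2% for genes that fell, 56.8% for genes that rose and 59.6% for genes tested, and promoters were not matched for it.

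**Figure D2:**
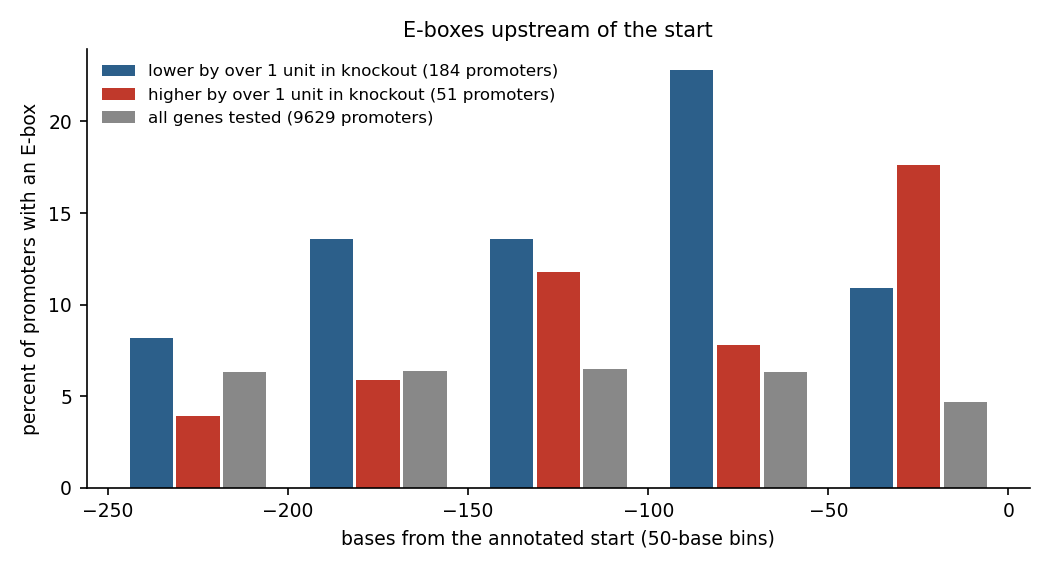
Percent of promoters (y axis) with at least 1 of the E-boxes set in capitals in the text in each 50-base bin before the annotated start (x axis, bases), for genes lower by over 1 unit (blue), higher by over 1 unit (red) and all genes tested (grey). The tallest bar is that of genes that fell between 100 and 51 bases before the start, at 22.8%, against 6.3% of all genes tested in that bin; in the bin next to the start the tallest bar is that of genes that rose, at 17.6%.

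Signals that leave the oocyte fell with its structural genes. Gdf9, the growth factor that keeps granulosa cells dividing, scored 1.01, 1.24 and 0.58 in the knockout ovaries, against 4.17, 4.41 and 4.29 in the wild-type ovaries. It fell (−3.35 ± 0.14, adjusted p = 7.9e-09) but remained at the 82.7th percentile in the knockout, against the 99.9th in wild-type ovaries. Bmp15, its X-linked relative, was not above background in the knockout, with −0.56, −0.60 and −0.58 in the knockout ovaries, against 2.70, 2.58 and 3.15 in the wild-type ovaries (−3.39 ± 0.13, at least −3.25, adjusted p = 4.28e-09). Fgf8, by which oocytes signal to granulosa cells, differed by −1.71 ± 0.13, at least −1.51 (adjusted p = 1.28e-06; −1.13 with probes averaged), and Rspo2, an oocyte-made enhancer of Wnt signalling, by −1.65 ± 0.12, at least −1.46 (adjusted p = 8.9e-07; −0.97 with probes averaged). Kit, the receptor by which oocytes sense the granulosa cell ligand, scored 1.36, 1.31 and 1.64 in the knockout ovaries, against 2.51, 2.69 and 2.61 in the wild-type ovaries (−1.17 ± 0.09, adjusted p = 2.55e-06). The ligand gene Kitl, made by granulosa cells, did not pass the test (0.27 ± 0.11, adjusted p = 0.0676), and its groups overlapped. The gap junction gene Gja4, whose connexin links oocyte and granulosa cells, fell (−1.18 ± 0.08, adjusted p = 7.39e-07). Over 29 tested of 34 listed genes for oocyte growth factors and the receptors and mediators that answer them, 10 fell and 3 rose, with a median of −0.06 near that of all genes. Id2, a target of BMP signalling in many cells, was among those that rose (0.81 ± 0.09; 0.53 with probes averaged).

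**Figure D3:**
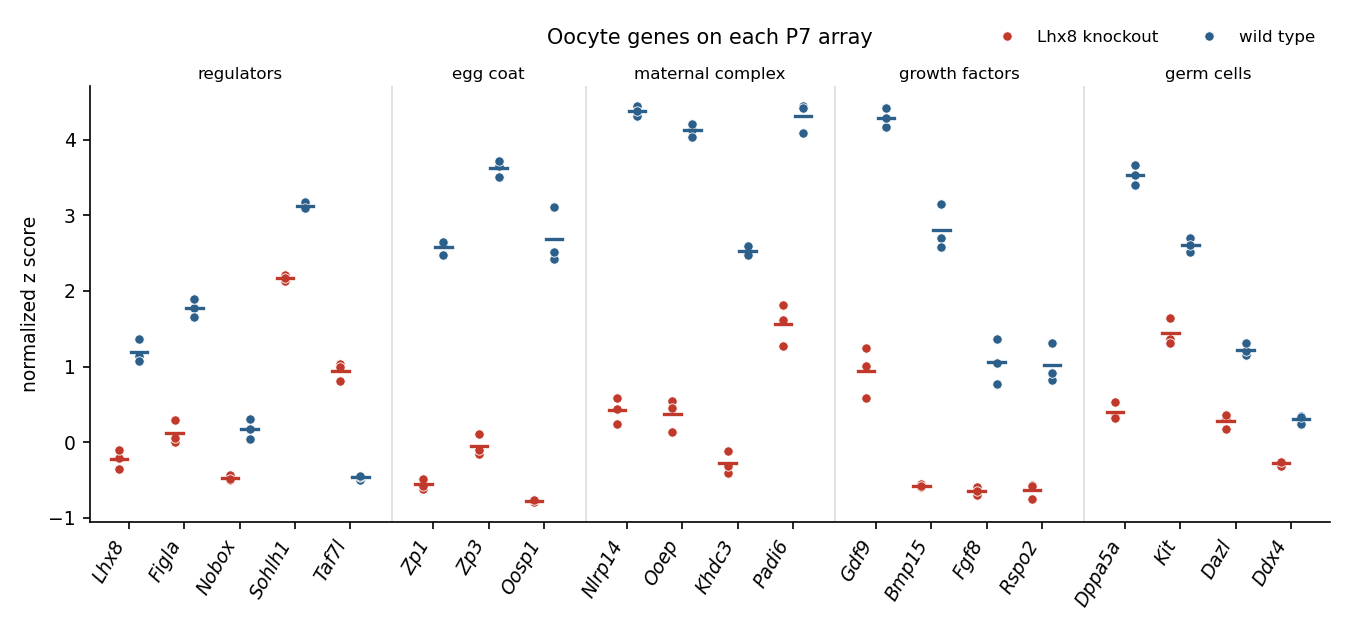
Normalized z score (y axis) of oocyte genes on each P7 array, 3 knockout arrays in red left of 3 wild-type arrays in blue for each gene, with a bar at the mean. Knockout and wild-type points do not overlap for any gene shown, as in 53.6% of all genes tested, and Taf7l is the gene that is higher in the knockout.

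The maternal stores that the oocyte lays down were lower at the level of chromatin factors, messenger storage and meiotic control. Of 32 listed maternal chromatin genes 26 were tested, 15 fell and 2 rose (median −0.29; 1 rose on the deposited scores, after median scaling and without knockout replicate 2 or 3 or wild-type replicate 3). H1f8, the linker histone of the egg, scored −0.78, −0.80 and −0.67 in the knockout ovaries, against 2.29, 2.21 and 2.81 in the wild-type ovaries (−3.19 ± 0.14, at least −2.89, adjusted p = 1.23e-08), whereas none of the other 3 tested linker histone genes was called, though 1 was called higher without wild-type replicate 1 or 2, with array weights or without a trend in the variance. Npm2, a histone chaperone (−2.59 ± 0.13, at least −2.51), Dppa3, which protects the maternal genome's methylation after fertilization (−2.32 ± 0.11), and Dnmt1, the maintenance DNA methyltransferase (−1.60 ± 0.10), fell too. Dppa3 scored 1.44, 1.53 and 1.62 in the knockout ovaries, against 3.65, 4.13 and 3.75 in the wild-type ovaries, and Dnmt1 1.66, 1.71 and 1.42 in the knockout ovaries, against 3.02, 3.30 and 3.25 in the wild-type ovaries. Both genes stayed well above background in the knockout, unlike H1f8 and Npm2. Ehmt2, a histone methyltransferase gene, rose (0.36 ± 0.07).

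Of 43 listed genes of maternal messenger storage and decay 34 were tested, 24 fell and none rose (median −0.44); 1 rose on the deposited scores, after median scaling, with array weights and without wild-type replicate 2. Btg4, an adaptor that recruits the deadenylase to maternal messengers, scored −0.07, −0.14 and −0.08 in the knockout ovaries, against 1.57, 1.69 and 1.80 in the wild-type ovaries (−1.78 ± 0.09, adjusted p = 4.58e-08). Ybx2, which masks messengers in germ cells, fell by a similar amount (−1.64 ± 0.08; −1.08 with probes averaged), and Eif4e1b, an oocyte form of the cap-binding protein, fell to background (−2.12 ± 0.10, at least −1.88). Lsm14b, a component of the oocyte's ribonucleoprotein stores, fell (−1.31 ± 0.08) and still scored 1.81, 1.84 and 1.89 in the knockout ovaries, against 3.0, 3.26 and 3.21 in the wild-type ovaries. In the meiotic maturation list, 28 of 40 genes were tested, 17 fell and 3 rose (median −0.35). Mos, the kinase that drives the meiotic MAPK pathway (−2.66 ± 0.09, at least −2.34), and Ccno, a cyclin (−2.76 ± 0.10), fell most, followed by the germ cell kinase gene Aurkc (−1.67 ± 0.14). Mos was not above background in any knockout ovary. The 3 rises were small and depended on the processing: none was called on the deposited scores or in a fit of all 12 arrays, 1 after median scaling, and 1 without knockout replicate 1 or wild-type replicate 3.

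Markers of germ cells in general, which also mark oocytes before growth, were lower too. Of 18 germ cell markers 15 were tested and 13 fell, with no rise and a median of −0.93; their mean score lay between 0.33 and 0.40 on the knockout arrays, against 1.30 to 1.47 on the wild-type arrays. Dppa5a, a gene of germ cells and early embryos, fell most: 0.34, 0.53 and 0.32 in the knockout ovaries, against 3.40, 3.53 and 3.66 in the wild-type ovaries (−3.13 ± 0.09, adjusted p = 4.43e-10). Elavl2, an RNA-binding protein gene with a role in oocytes, fell by over 2 units (−2.05 ± 0.11). Gtsf1 (−1.52 ± 0.14) and Tdrd9 (−1.20 ± 0.10), which act in transposon silencing, came next. Dazl, which controls translation in germ cells, scored 0.33, 0.17 and 0.35 in the knockout ovaries, against 1.15, 1.21 and 1.32 in the wild-type ovaries (−0.94 ± 0.09, adjusted p = 1.07e-05), and Ddx4, the germ cell RNA helicase, −0.27, −0.31 and −0.27 in the knockout ovaries, against 0.34, 0.23 and 0.33 in the wild-type ovaries (−0.58 ± 0.07, adjusted p = 5.42e-05). Both germ cell markers were above background on all 3 knockout arrays. Of 36 listed genes for meiotic chromosome pairing and recombination, events that end before birth, 17 were tested, 9 fell and 2 rose (median −0.33), with the cohesin gene Smc1b lowest (−1.48 ± 0.09) and Msx1, a homeobox gene that responds to BMP, highest (0.89 ± 0.10; 0.56 with probes averaged). The cohesin gene Rec8 was higher (0.73 ± 0.10), a call lost in a fit of all 12 arrays (adjusted p = 0.176).

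Several losses lay side by side in the genome. Among genes tested, 7 runs of 3 or more neighbours were all lower by over 1 unit. They were the Tcl1 cluster on chromosome 12 (4 genes), the Oosp cluster on chromosome 19 (3), the Oas1 genes Oas1e, Oas1c and Oas1d on chromosome 5 (3), 3 Obox genes with Pla2g4c on chromosome 7 (4), an Nlrp run on chromosome 7 (3), and a pair of Fbxw runs on chromosome 9 (4 and 5). Most genes of a run belong to 1 family, and a probe could read more than 1 of them, so their losses are not independent. Within them the values spread: Fbxw18 differed by −3.46 ± 0.13, at least −3.31, Fbxw15 by −3.30 ± 0.12, at least −2.97 and Fbxw24 by −2.91 ± 0.14, at least −2.57, all at background in the knockout. Of 16 tested genes of the FBXW family 10 fell and 2 rose, and with an array left out 0 or 1 rose (0 without knockout replicate 1 or 2 or wild-type replicate 3). In 10 of the 16 the lower genotype was not above background on any array, so the brightness filter fixed their direction.

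The NLRP family holds several proteins of the egg. Of 17 genes with a named probe 9 were tested and 8 fell. In 5 of the 9 no knockout array was above background, so the brightness filter fixed their direction. Nlrp14, an oocyte protein, showed the largest fall of all genes tested, with 0.24, 0.59 and 0.43 in the knockout ovaries, against 4.32, 4.45 and 4.38 in the wild-type ovaries (−3.96 ± 0.09, adjusted p = 1.95e-10). Nlrp9a (−1.54 ± 0.10, at least −1.28) and Nlrp4a (−1.46 ± 0.10, at least −1.16) were at background in the knockout, and Nlrp10 did not pass the test (0.01 ± 0.06, adjusted p = 0.901). In the oligoadenylate synthetase family, known for antiviral RNA decay, Oas1d (−3.35 ± 0.12), Oas1e (−2.48 ± 0.14, at least −2.35) and Oas1c (−1.68 ± 0.10) fell, whereas Oasl2 was higher (0.40 ± 0.11) with a call that was lost in a fit of all 12 arrays (adjusted p = 0.139) and without knockout replicate 2 (0.0533). Elobl, an elongin B-like gene (−3.50 ± 0.10), Cpsf4l, a relative of an RNA cleavage factor (−3.14 ± 0.09), Khdc1c (−3.16 ± 0.11, at least −3.09) and Bcl2l10, a BCL2 relative of oocytes (−3.09 ± 0.12), were also among the 20 largest falls, as were Ftdc2 (−3.06 ± 0.13) and Omt2a (−2.95 ± 0.14).

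**Figure D4:**
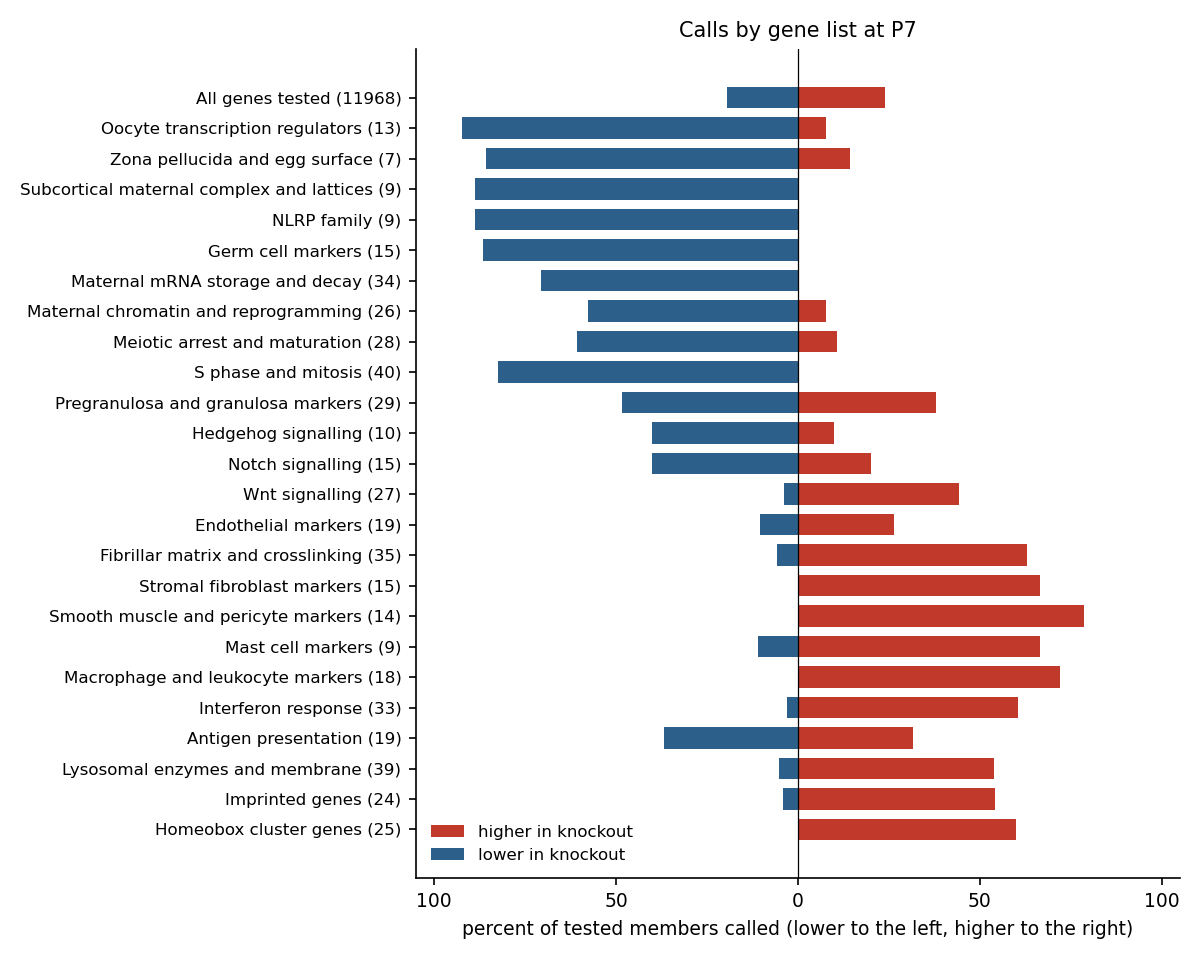
Share of tested members of each gene list (number tested in parentheses) called higher (red, to the right) or lower (blue, to the left) in the knockout, on an x axis in percent of members. All 11968 genes tested stand at 24% higher and 19.5% lower; oocyte lists lie to the left and stromal, muscle, mast cell and leukocyte lists to the right.

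Granulosa cell genes moved both ways. Of 36 listed markers 29 were tested, 14 fell and 11 rose, with a median of −0.19. Amh, the hormone that granulosa cells of growing follicles secrete, scored −0.19, −0.50 and −0.49 in the knockout ovaries, against 0.72, 0.80 and 0.67 in the wild-type ovaries (−1.12 ± 0.10, adjusted p = 4.16e-06). Fst, which binds activin, scored 1.56, 1.42 and 1.37 in the knockout ovaries, against 2.43, 2.40 and 2.44 in the wild-type ovaries (−0.97 ± 0.08, adjusted p = 1.86e-06), and Inhba, a subunit of activin and inhibin, 0.75, 0.89 and 0.62 in the knockout ovaries, against 1.97, 1.28 and 1.41 in the wild-type ovaries (−0.80 ± 0.15, adjusted p = 0.00128). For these hormone genes no knockout ovary reached any wild-type ovary, a separation seen in 53.6% of all genes tested. Fshr, the receptor for follicle-stimulating hormone, fell (−0.94 ± 0.09, adjusted p = 9.84e-06), as did Nr5a2, a nuclear receptor of granulosa cells (−1.10 ± 0.08, adjusted p = 9.36e-07), and the estrogen receptor gene Esr2 (−0.71 ± 0.10, adjusted p = 0.000216; −0.44 with probes averaged). Hsd17b1, which makes active estrogen, fell (−0.70 ± 0.16, adjusted p = 0.00456), with adjusted p = 0.0579 after median scaling. Inha, the other inhibin subunit, had 2.67, 2.82 and 2.71 in the knockout ovaries, against 3.58, 2.83 and 3.44 in the wild-type ovaries (−0.55 ± 0.15, adjusted p = 0.0104). Its lowest wild-type value, in replicate 2, lay next to the knockout values: the call was lost on the deposited scores (adjusted p = 0.218) and after median scaling (0.265), without that array the difference was −0.83, and in a fit of all 12 arrays it was −0.85.

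Several markers of pregranulosa cells and of the ovarian surface were higher. Lgr5, a receptor for R-spondins on surface epithelium and pregranulosa cells, scored 1.69, 1.64 and 1.73 in the knockout ovaries, against 0.80, 0.81 and 0.43 in the wild-type ovaries (1.01 ± 0.11, adjusted p = 2.07e-05). Irx3, a homeobox gene of pregranulosa cells, scored 3.16, 2.97 and 3.27 in the knockout ovaries, against 2.40, 2.32 and 2.08 in the wild-type ovaries (0.87 ± 0.10, adjusted p = 3.42e-05). The keratin genes Krt18 (0.85 ± 0.12) and Krt19 (0.85 ± 0.09) rose with them. Foxl2, the factor that keeps granulosa cell identity, did not pass the test (−0.19 ± 0.09, adjusted p = 0.1), and its groups overlapped. Of 14 surface epithelium and mesothelium markers, which share Lgr5 and Krt19 with this list, 12 were tested, 7 rose and 1 fell; Upk1b, a uroplakin gene, rose (1.15 ± 0.15) and Bnc1, a zinc finger gene, fell (−0.56 ± 0.10). The mean score of that list was 0.78 to 0.97 on the knockout arrays and 0.42 to 0.60 on the wild-type arrays, and its part in the pregranulosa result was not tested.

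Hedgehog signalling between granulosa and theca cells was lower at the ligands and at the feedback genes. Granulosa cells make the ligands DHH and IHH, and the outer cells that receive them switch on Ptch1 and Hhip. Dhh scored 0.96, 0.83 and 0.84 in the knockout ovaries, against 1.59, 1.61 and 1.67 in the wild-type ovaries (−0.75 ± 0.08, adjusted p = 2.38e-05). Ihh was not above background in the knockout (−0.53 ± 0.09, at least −0.38, adjusted p = 0.000708). Ptch1, the receptor and feedback gene, scored 0.36, 0.31 and 0.46 in the knockout ovaries, against 1.61, 1.38 and 1.28 in the wild-type ovaries (−1.04 ± 0.10, adjusted p = 9.84e-06), and Hhip, a binding inhibitor, was at background in the knockout (−0.72 ± 0.08, at least −0.55, adjusted p = 3.16e-05). Of 15 listed genes 10 were tested, 4 fell, which are these, and Smo, the signal transducer, was higher (0.37 ± 0.07; adjusted p = 0.0644 with probes averaged). In the theca and steroid cell list 11 of 14 were tested, 4 fell and 2 rose. In a fit of all 12 arrays 2 fell, and 4 rose without wild-type replicate 1. The falls were Ptch1 and Hhip, already counted above, with Hsd3b1 (−0.28 ± 0.08, adjusted p = 0.0154) and Scarb1 (−0.32 ± 0.10, adjusted p = 0.0194). The calls of Hsd3b1 and Scarb1 were lost in a fit of all 12 arrays (adjusted p = 0.0732 and 0.0839). The rises were Aldh1a1 (0.36 ± 0.08, adjusted p = 0.00407) and Star. Star, which moves cholesterol into mitochondria, was slightly higher, with no wild-type array above background (0.30 ± 0.06, at least 0.17), and Cyp11a1 (0.23 ± 0.17, adjusted p = 0.289) and Cyp17a1 (0.42 ± 0.31, adjusted p = 0.306), enzymes of steroid synthesis, did not pass the test.

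Genes of Notch signalling, by which oocyte ligands reach granulosa cells, moved both ways, with the largest falls at the ligand gene Jag2 and at target genes. Jag2, a ligand, scored −0.29, −0.17 and −0.18 in the knockout ovaries, against 0.59, 0.42 and 0.26 in the wild-type ovaries (−0.64 ± 0.09, adjusted p = 0.000217). Hey2, a target, scored −0.35, −0.45 and −0.43 in the knockout ovaries, against 0.74, 0.41 and 0.74 in the wild-type ovaries (−1.04 ± 0.10, adjusted p = 7.79e-06), and Hey1 1.07, 0.95 and 0.98 in the knockout ovaries, against 1.80, 2.05 and 1.91 in the wild-type ovaries (−0.92 ± 0.09, adjusted p = 7.94e-06). Nrarp, a feedback inhibitor and target, fell as well (−0.83 ± 0.09, adjusted p = 2.96e-05). The groups did not overlap in any of these genes, as in 53.6% of all genes tested, and these were picked as the largest called falls of the list. Of 21 listed genes 15 were tested, 6 fell and 3 rose, with a median of 0.08. Hes1, a target of Notch and of other pathways, was among the 3 risers (0.36 ± 0.11, adjusted p = 0.0186), and it was not called without knockout replicate 1 (adjusted p = 0.0735) or wild-type replicate 1 (0.0729) or 3 (0.0721). The others were the ligand gene Dll1 (0.17 ± 0.06, adjusted p = 0.0303) and the receptor gene Notch3 (0.25 ± 0.09, adjusted p = 0.046). Neither was called on the deposited scores, after median scaling, with a replicate block or in a fit of all 12 arrays. The count of risers was 1 on the deposited scores and after median scaling, 1 with a replicate block or in a fit of all 12 arrays, and 0 to 2 with an array left out (0 without wild-type replicate 3, and 1 without knockout replicate 1 or 2).

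Wnt signalling genes went the other way. Of 40 listed genes 27 were tested, 12 rose and 1 fell, the oocyte gene Rspo2 described above; the median was 0.16. Rspo1, the R-spondin of the pregranulosa and surface cells, scored 0.52, 0.47 and 0.75 in the knockout ovaries, against −0.16, −0.36 and −0.23 in the wild-type ovaries (0.83 ± 0.10, adjusted p = 3.69e-05). Rspo3 scored 0.91, 0.64 and 0.36 in the knockout ovaries, against −0.45, −0.21 and −0.20 in the wild-type ovaries (0.92 ± 0.13, adjusted p = 0.000137), and Wnt6, a ligand, 2.94, 2.85 and 2.72 in the knockout ovaries, against 2.10, 2.03 and 1.90 in the wild-type ovaries (0.83 ± 0.08, adjusted p = 1.14e-05). The R-spondins thus diverged: Rspo1 and Rspo3 were higher in every knockout ovary than in any wild-type ovary, and Rspo2 was lower in every knockout ovary. On the deposited scores and after median scaling 11 Wnt genes rose and 4 fell.

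**Figure D5:**
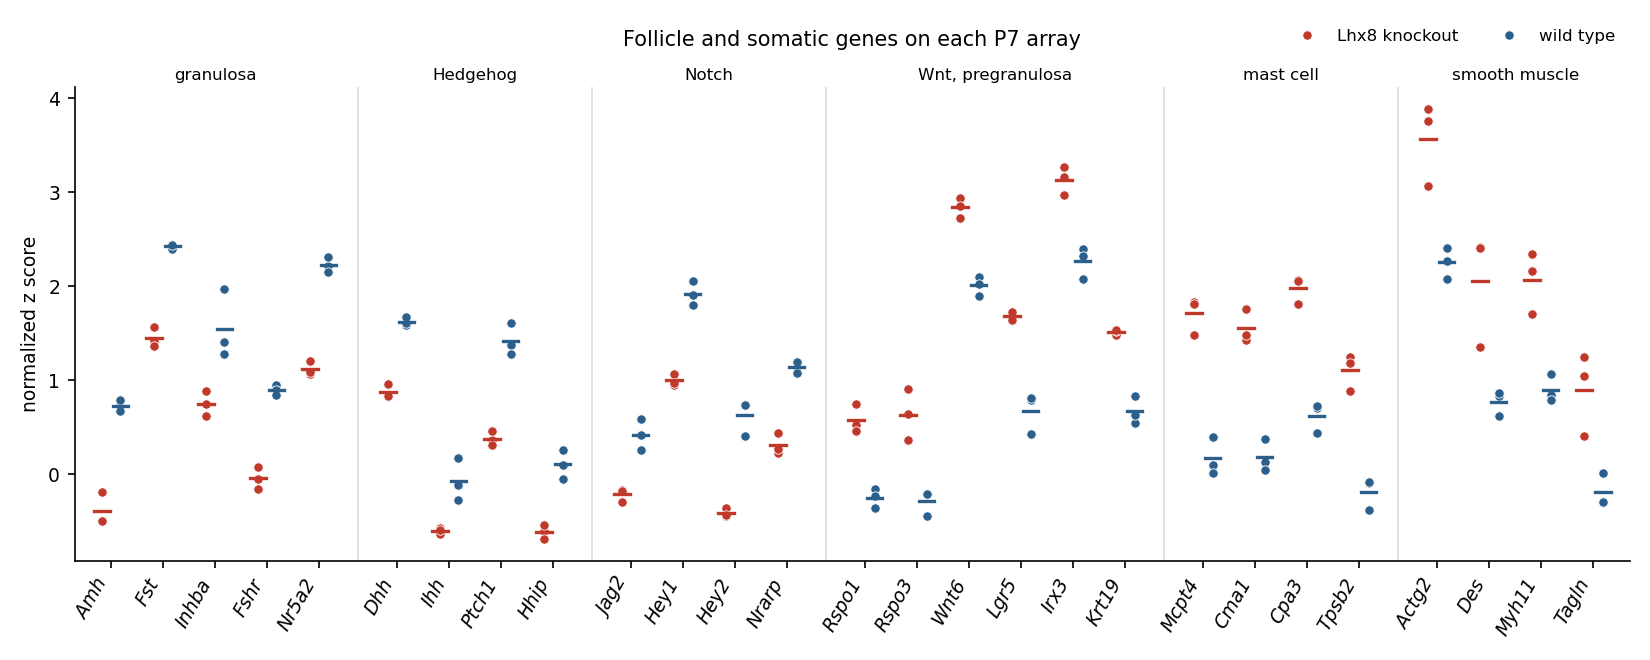
Normalized z score (y axis) of granulosa, pathway and other somatic genes on each P7 array, 3 knockout arrays in red left of 3 wild-type arrays in blue for each gene, with a bar at the mean. Granulosa, Hedgehog and Notch genes shown are lower in the knockout and Wnt, pregranulosa, mast cell and smooth muscle genes are higher, with no overlap between genotypes. Ranges were separate in 53.6% of all genes tested.

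Genes of DNA synthesis and cell division were lower across the list. Of 48 listed genes 40 were tested and 33 fell, with no rise and a median of −0.45, and 29 to 35 fell under every alternative tried. Birc5, a survivin that guides chromosomes in mitosis, scored 1.58, 1.71 and 1.87 in the knockout ovaries, against 2.76, 2.71 and 2.85 in the wild-type ovaries (−1.05 ± 0.08, adjusted p = 2.26e-06). Ect2, needed for cell cleavage, was at background in the knockout (−0.90 ± 0.14, at least −0.71). Mcm10, a replication factor, also fell (−0.92 ± 0.09; −0.51 with probes averaged), and so did Prc1, which bundles the central spindle (−0.94 ± 0.07; −1.43 in a fit of all 12 arrays). Of 27 tested kinesin genes of 33, motors that include those of the spindle, 16 fell and 3 rose; Kif4, which condenses chromosomes, was lowest (−1.33 ± 0.08). Germ cell and growing-follicle markers moved with these genes, as given above, and their part in the result was not tested.

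Genes that watch over the oocyte genome and its survival had calls in both directions. Of 40 listed genes 33 were tested, 11 fell and 7 rose, with a median of −0.06. The falls were 33.3% of those tested, against 19.5% of all genes. The rises were 21.2%, below the 24% of all genes, so their count sets this list apart in no way. Trp63, whose oocyte form removes damaged oocytes, scored 0.25, 0.33 and 0.28 in the knockout ovaries, against 1.83, 2.19 and 1.89 in the wild-type ovaries (−1.68 ± 0.10, adjusted p = 2.17e-07). Chek1 (−0.70 ± 0.09), a checkpoint kinase, and Rnf168 (−0.77 ± 0.09), a ubiquitin ligase that marks DNA breaks, fell. Cdkn1a, the cell cycle inhibitor p21, scored 1.31, 1.41 and 1.03 in the knockout ovaries, against 0.44, 0.43 and 0.24 in the wild-type ovaries (0.88 ± 0.11, adjusted p = 7.43e-05). Bbc3, a trigger of apoptosis (0.47 ± 0.09, adjusted p = 0.00166; 0.27 with probes averaged), and Bcl2, an inhibitor of apoptosis (0.46 ± 0.10, adjusted p = 0.00363), rose; the other probe of Bbc3 differed by 0.06 and was not called. In the PI3K, mTOR and FOXO list 21 of 28 genes were tested, 5 fell (23.8%) and 2 rose (9.5%). The share of falls was near that of all genes, and the share of rises was below it. Foxo1, a factor of granulosa cells, fell most (−0.66 ± 0.11). These counts are small: 3 fell without wild-type replicate 1 or 2, and 1 rose on the deposited scores, after median scaling, with probes averaged and without knockout replicate 1 or 3 or wild-type replicate 2 or 3.

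Stromal and contractile genes were higher in the knockout. Of 46 listed genes of fibrillar matrix and its crosslinking 35 were tested, 22 rose and 2 fell, with a median of 0.34; 4 fell on the deposited scores, after median scaling and with array weights, 1 with probes averaged or without wild-type replicate 3, and none in a fit of all 12 arrays or without knockout replicate 2 or wild-type replicate 1. Tnxb, a tenascin, scored 1.51, 1.57 and 1.48 in the knockout ovaries, against 0.49, 0.51 and 0.64 in the wild-type ovaries (0.98 ± 0.08, adjusted p = 4.42e-06). Lum, a collagen-binding proteoglycan (0.66 ± 0.11), Thbs2, a thrombospondin (0.78 ± 0.09), and the basement membrane genes Lamb2 (0.81 ± 0.09) and Col15a1 (0.78 ± 0.09) rose. All 3 knockout values lay above the wild-type values in each of these, and 53.6% of all genes tested had separate ranges. Of 17 stromal fibroblast markers, which share collagens and Lum with that list, 15 were tested, 10 rose and none fell, and in a fit of all 12 arrays 5 rose; 1 fell with array weights and without wild-type replicate 2. Of 20 endothelial markers 19 were tested, 5 rose and 2 fell, with a median of 0.03.

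Smooth muscle markers had a higher median than the stromal and endothelial lists. Of 15 listed 14 were tested, 11 rose and none fell, with a median of 0.52, and 9 rose and 1 fell on the deposited scores and after median scaling. Actg2, the actin of visceral smooth muscle, scored 3.89, 3.76 and 3.07 in the knockout ovaries, against 2.08, 2.27 and 2.41 in the wild-type ovaries (1.32 ± 0.17, adjusted p = 8.57e-05; 2.0 in a fit of all 12 arrays). Des, the muscle filament desmin, scored 2.42, 2.40 and 1.36 in the knockout ovaries, against 0.62, 0.83 and 0.86 in the wild-type ovaries (1.29 ± 0.22, adjusted p = 0.000679). Myh11, smooth muscle myosin, scored 2.34, 2.17 and 1.71 in the knockout ovaries, against 0.84, 0.79 and 1.07 in the wild-type ovaries (1.17 ± 0.14, adjusted p = 5.4e-05), and Tagln, an actin-binding protein, 1.25, 1.04 and 0.41 in the knockout ovaries, against −0.29, −0.30 and 0.02 in the wild-type ovaries (1.09 ± 0.18, adjusted p = 0.00045). In all 4 genes knockout replicate 3 was the lowest of the knockout ovaries, though still above every wild-type ovary. Without that array the differences were 1.51 for Actg2, 1.61 for Des, 1.33 for Myh11 and 1.34 for Tagln.

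Mast cell proteases formed a compact group of rises. Mast cells store chymases, tryptases and carboxypeptidase A3 in granules. Mcpt4, a chymase, scored 1.84, 1.82 and 1.49 in the knockout ovaries, against 0.10, 0.02 and 0.40 in the wild-type ovaries (1.54 ± 0.12, adjusted p = 2.4e-06). Cma1, another chymase, scored 1.76, 1.43 and 1.48 in the knockout ovaries, against 0.13, 0.05 and 0.38 in the wild-type ovaries (1.37 ± 0.12, adjusted p = 3.54e-06), and Cpa3, the carboxypeptidase, 2.07, 2.05 and 1.81 in the knockout ovaries, against 0.44, 0.71 and 0.73 in the wild-type ovaries (1.35 ± 0.10, adjusted p = 1.69e-06). Tpsb2, a tryptase, scored 1.25, 1.19 and 0.89 in the knockout ovaries, against −0.09, −0.38 and −0.08 in the wild-type ovaries (1.29 ± 0.12, adjusted p = 6.5e-06), and Cma2, a chymase outside the list, also rose (1.59 ± 0.12). For each of these proteases every knockout ovary exceeded every wild-type ovary, and 53.6% of all genes tested had separate ranges. Mcpt4, Cma1, Cma2 and Cpa3 are also among the ranked largest rises, for which separate ranges were a condition of the ranking. Hdc, which makes histamine (1.03 ± 0.19), and Gata2, a transcription factor of mast cells and other blood cells (0.82 ± 0.14), rose too. Of 12 listed markers 9 were tested, 6 rose and 1 fell; the faller was Kit, which oocytes and mast cells both carry. The list's mean score was 1.02 to 1.28 on the knockout arrays and 0.43 to 0.50 on the wild-type arrays.

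Macrophage and interferon genes were modestly higher. Of 24 macrophage and leukocyte markers 18 were tested, 13 rose and none fell, with a median of 0.37; their mean score was 0.33 to 0.48 on the knockout arrays and 0.02 to 0.09 on the wild-type arrays. On the deposited scores 7 rose, and in a fit of all 12 arrays 9. Fcgr3, a receptor for antibodies (0.61 ± 0.09), and Laptm5, a lysosomal membrane protein of leukocytes (0.60 ± 0.08), rose most. Adgre1, which encodes F4/80, was not called (0.24 ± 0.13, adjusted p = 0.149), but another probe of it was called higher (0.20). Of 53 interferon response genes 33 were tested, 20 rose and 1 fell (14 rose and none fell on the deposited scores), with Ifi27 (0.80 ± 0.09), the guanylate-binding protein gene Gbp2 (0.76 ± 0.09) and the GTPase gene Igtp (0.64 ± 0.09) highest. Ifi27l2a, a relative of Ifi27, rose further, with 2.49, 2.56 and 2.42 in the knockout ovaries, against 0.76, 0.47 and 0.61 in the wild-type ovaries (1.88 ± 0.09, adjusted p = 2.84e-08). Of 14 lymphocyte markers 1 was tested, and it was not called.

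Antigen presentation genes moved both ways. H2-D1 and H2-K1, classical class I genes, were lower: H2-D1 scored 1.32, 1.24 and 1.45 in the knockout ovaries, against 2.18, 2.42 and 2.36 in the wild-type ovaries (−0.98 ± 0.09, adjusted p = 5.69e-06) and H2-K1 scored 0.13, 0.08 and 0.40 in the knockout ovaries, against 0.73, 1.31 and 1.06 in the wild-type ovaries (−0.83 ± 0.14, adjusted p = 0.000596). Averaged over probes they differed by −0.52 and −0.50. H2-T23, a nonclassical class I gene (−0.58 ± 0.09), and Nlrc5, the activator of class I genes (−0.49 ± 0.09, at least −0.30), fell with them. B2m, the shared light chain, did not pass the test (−0.28 ± 0.11, adjusted p = 0.0572), but another probe of it was called lower (−0.27). Cd74, the class II invariant chain (0.63 ± 0.08; 0.42 in a fit of all 12 arrays), the immunoproteasome gene Psmb10 (0.60 ± 0.08) and the peptide transporter gene Tap2 (0.53 ± 0.09) rose. Over the list of 26 genes 19 were tested, 6 rose and 7 fell. The class I genes vary between mouse strains, the animals were of mixed background, and the part of strain alleles in these probes was not tested.

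Imprinted genes, of which only 1 parental copy is active, were mostly higher. Of 36 listed 24 were tested, 13 rose and 1 fell, with a median of 0.28, or 0.19 with genes at background set to their bound. Dio3, which inactivates thyroid hormone, scored 1.49, 1.52 and 1.93 in the knockout ovaries, against 0.41, 0.36 and 0.28 in the wild-type ovaries (1.29 ± 0.12, adjusted p = 6.07e-06). Cdkn1c, an inhibitor of the cell cycle, rose (0.82 ± 0.07, adjusted p = 4.55e-06), as did Dlk1, a Notch-like membrane protein (0.81 ± 0.08, adjusted p = 1.03e-05), and the growth factor gene Igf2 (0.65 ± 0.09, adjusted p = 0.000136). The sizes depended on the scaling: on the deposited scores the differences were 1.25 for Dlk1 and 1.03 for Igf2, and in a fit of all 12 arrays they were 1.37 and 1.02, with 1.26 for Cdkn1c. Igf1, the granulosa cell growth factor that is not imprinted, did not pass the test (−0.06 ± 0.09, adjusted p = 0.629); another probe of it was called higher (0.35), and in a fit of all 12 arrays Igf1 was called higher (0.38, adjusted p = 0.0416). Homeobox cluster genes, which mark position along the body, were higher too: 25 of 39 were tested, 15 rose and none fell (median 0.25), with Hoxb7 highest (0.67 ± 0.08); 7 rose on the deposited scores.

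Clearance and metabolism genes differed by smaller steps, and the shares of all genes tested to set beside them are 24% higher and 19.5% lower. Of 47 lysosome genes 39 were tested, 21 rose and 2 fell (median 0.27; 1 fell with a replicate block, in a fit of all 12 arrays or without any 1 array other than wild-type replicate 2), with the protease genes Ctsz (0.77 ± 0.11) and Tpp1 (0.64 ± 0.09) among the highest. In autophagy 12 of 39 tested genes rose (30.8%) and 3 fell (7.7%), with a median of 0.13, and 8 rose on the deposited scores. Of 28 cholesterol synthesis genes 20 were tested, 5 fell and 1 rose, with 8 falls on the deposited scores and 2 rises without knockout replicate 3; Insig1, which restrains synthesis (−1.31 ± 0.10; −0.77 in a fit of all 12 arrays), Stard4, a sterol carrier (−0.76 ± 0.11), and Sqle, squalene epoxidase (−0.50 ± 0.07), fell. Among 81 tested genes of the respiratory chain and ATP synthase 13 rose (16.0%) and 7 fell (8.6%), both below the shares of all genes tested. On the deposited scores 25 rose and 8 fell, and after median scaling 23 rose. Without knockout replicate 1 there were 4 rises, without knockout replicate 2 there were 7 rises and 4 falls, and without wild-type replicate 1 there were 8 rises; with probes averaged 4 fell. Cytosolic ribosomal protein genes had a median of 0.04 after quantile normalization and of 0.53 on the deposited scores, so that group depends on the scaling.

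The largest rises were those of Cela1 and Gng13, which are in none of the lists. Cela1, a pancreatic type of elastase, scored 3.08, 3.31 and 3.08 in the knockout ovaries, against 0.25, 0.42 and 0.68 in the wild-type ovaries. It stood at the 98.8th percentile in knockout ovaries and at the 75.7th in wild-type ovaries (2.70 ± 0.11, adjusted p = 7.9e-09). Gng13, a G protein subunit, scored 3.54, 3.37 and 3.23 in the knockout ovaries, against 1.21, 1.14 and 0.65 in the wild-type ovaries (2.38 ± 0.13, adjusted p = 1.09e-07). Wfdc2, a secreted protein of epithelia, scored 2.20, 2.65 and 1.53 in the knockout ovaries, against 0.34, 0.38 and −0.09 in the wild-type ovaries (1.92 ± 0.22, adjusted p = 4.13e-05), with more spread among the knockout ovaries. Mia, a secreted protein of cartilage and melanoma cells, rose by a similar amount (1.89 ± 0.10, adjusted p = 4.58e-08), and so did Apoc1, an apolipoprotein (1.78 ± 0.11, adjusted p = 2.28e-07), and Ramp1, a partner of neuropeptide receptors (1.70 ± 0.11, adjusted p = 3.63e-07). In every one of these genes all knockout ovaries exceeded all wild-type ovaries, but only genes with separate ranges were ranked here. Sspn, which rose by 2.05 ± 0.58, was left out of this ranking because its ranges overlapped. Ucp1, the heat-making protein of brown fat, scored 0.69, 1.01 and 0.94 in the knockout ovaries, against −0.68, −0.67 and −0.61 in the wild-type ovaries (1.53 ± 0.09, at least 1.36, adjusted p = 2.14e-07). Of 12 adipocyte markers, Ucp1 among them, 5 were tested and 2 rose, with a median of 0.11. Their mean score, of which Ucp1 is a part, was 0.62 to 0.69 on the knockout arrays and 0.27 to 0.34 on the wild-type arrays. Further rises above 1 unit were those of Syt1 (1.46 ± 0.11) and Astn1 (1.46 ± 0.09), known from neurons, of the glutathione transferase gene Gstm6 (1.42 ± 0.11) and of Acsm3, a fatty acid ligase (1.48 ± 0.11).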

How the data were processed

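Total RNA of ovaries was measured on Illumina BeadChips, and genotype, age and replicate number were taken from the sample titles. Array reading used GenomeStudio 2011.1 (per the submitters' processing notes). The authors deposited scores, centred to mean 0 and scaled to SD 1 per array, and no source used here says whether a log came first. A further 48 columns of bead signals and detection p-values that the authors deposited name no age and were not used.

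Scores of the 6 P7 arrays were quantile-normalized and fitted with limma 3.58.1 in R 4.3.3 (no replicate block, variance trend, 4 residual degrees of freedom). Background was the 95th percentile of 1525 olfactory, vomeronasal and trace amine receptor probes on each array, and a probe had to exceed it on at least 3 of the 6 arrays; 22661 did, of which 19158 named 1 gene. Probe genes came from GEO's platform annotation (34885 probes with 1 symbol, 18 with several, 10378 with none), and the probe with the highest mean over the 6 arrays stood for a gene. Of 2087 called genes with another tested probe, 1344 had one called the same way and 57 one called the opposite way.

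Genes named are the largest falls and rises and, for each list, those that changed most, with fixed defining markers. The largest falls and rises were taken only from called genes whose genotypes did not overlap. Separate ranges in those genes are thus no further result. The members, lists and tests were chosen with earlier results of these data known. Same-numbered samples did not deviate together (correlations −0.142, 0.151 and −0.121). With 3 arrays per genotype this cannot exclude a pairing, so a replicate block was run as an alternative. Figures were drawn with matplotlib 3.10.9.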

Additional observations from a re-analysis of the deposited data

How the results depend on the processing

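The counts of calls over all genes kept within 1.5 times their value under each alternative run. With an array left out, 4232 to 4982 genes were called, 2264 to 2739 higher and 1968 to 2243 lower; 63 to 87 rose and 218 to 256 fell by over 1 unit, and Lhx8 differed by −1.32 to −1.48. With a replicate block 5002 genes were called, 2743 higher and 2259 lower, and it changed none of these counts by over 1.5 times, though it changed small counts in some gene lists (Notch risers 1 against 3, lysosome falls 1 against 2, FBXW risers 1 against 2). The deposited scores gave 4999 calls (3986 shared with the 5197), median scaling 5030 (4072 shared), averaged probes 5214 (4762 shared) and all 12 arrays 4031 (3954 shared). Of 374 named genes 332 were called, and 267 of these kept their call under every alternative. The direction turned for Ddx47 with probes averaged (−0.0014 against 0.18), for Gja1 on the deposited scores (0.24) and after median scaling (0.25, against −0.26), and for Igf1 in all 12 arrays, where it was called (0.38 against −0.06); the cause was not tested. The bead signals were not run as an alternative because their columns name no age. Ribosomal, respiratory chain, Hox, macrophage and interferon counts depend on the scaling, as given with them. With 3 arrays a genotype, z scores and probes at background, only the bound given for a gene at background is a limit, not its fitted difference, and strain alleles under probes were not tested.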

Other observations

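A small number of genes varied more within a genotype than most differed between genotypes. The median range within a genotype was 0.15 units in knockout and 0.17 in wild-type ovaries, and 15 tested genes had a range above 1.5 in at least 1 genotype, 3 of them called. The genes below were chosen after their values were seen. Sspn, which encodes the membrane protein sarcospan, scored 2.55, 1.77 and 2.45 in the knockout ovaries, against −0.74, −0.77 and 2.13 in the wild-type ovaries (2.05 ± 0.58, limma adjusted p = 0.0136), so 1 wild-type ovary lay among the knockout values. Adamts9, a matrix protease, scored −0.16, 2.02 and −0.12 in the knockout ovaries, against 1.84, 2.01 and −0.31 in the wild-type ovaries, with both levels present in both genotypes. Dennd2a scored 1.28, 1.36 and −0.46 in the knockout ovaries, against 0.82, 0.66 and 0.83 in the wild-type ovaries. Serpina3n, a protease inhibitor, scored 0.96, 1.13 and −0.39 in the knockout ovaries, against −0.74, −0.69 and −0.77 in the wild-type ovaries. In each of these genes 1 or more samples stood apart from the others of their genotype, and the cause was not tested.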
